A study of Mus musculus with 20 samples.

Results

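The comparison described here is between 2 cell lines that carry the same stated genotype: clone1 and clone19, both labelled as Fh1 deletion clones. The cells are an immortalised epithelial line from the kidney of C57BL/6J mice. The members of the comparison are the 10 RNA sequencing libraries whose titles name these clones, 5 of clone1 and 5 of clone19, out of 20 libraries in the series. The other 10 libraries are 5 of Fh1_fl_fl (labelled Fh1 wild type) and 5 of Rec (labelled Fh1 wild type re-expressed). Their levels are given beside the clones without a test. They also entered the low count filter, the scaling and the spread estimate of the fit. All 4 groups were cultured in DMEM with fetal bovine serum and uridine. Clone1 and clone19 are 1 clone each, and the labels state neither which part of Fh1 was removed, nor the clone behind Rec, nor whether the 5 libraries of a line were separate cultures. The p-values therefore rest on the spread between libraries of a line, which may be technical. Those of the gene tests use a spread estimated over all 4 lines together, not over the clones alone. Estimated within each line, the variation between libraries beyond counting error was 10.4% in clone1 and 11% in clone19. It was smaller in Fh1_fl_fl (6.44%) and Rec (7.86%), and the common value of the fit was 9.02%. What the deletion, the founding cell and the time in culture each contribute cannot be told apart with 1 clone per side.

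Fh1 encodes fumarate hydratase, the enzyme of the tricarboxylic acid (TCA) cycle that turns fumarate into malate. Cells without it accumulate fumarate, which modifies cysteines of KEAP1, so that the transcription factor NRF2 escapes degradation and switches on antioxidant genes. Fumarate also inhibits enzymes that use 2-oxoglutarate and oxygen, among them the prolyl hydroxylases that mark hypoxia-inducible factor (HIF) for degradation and the TET enzymes that oxidise methylated cytosine. Single-cell clones of 1 parental line can differ from each other in any of these programs, in the genes they keep silent and in their chromosomes.

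Gene counts summed to between 6681589 and 12171975 in the clone1 libraries and between 5988447 and 10095536 in those of clone19. Counts are expressed below as CPM, reads relative to library sizes scaled by the trimmed mean of M-values, as mean ± SD over 5 libraries. A count of 3, the most that a count of 0 allows, corresponds to between 0.246 and 0.501 CPM in a single clone library; such limits cover counting error only. Fold changes are log2 values of clone19 minus clone1, so that a positive value means a higher level in clone19. A gene is called changed at a Benjamini-Hochberg adjusted p under 0.05 (edgeR quasi-likelihood test), and over 2-fold when glmTreat placed its difference beyond 2-fold at the same threshold. The SE beside a fold change is its absolute size divided by the square root of the F statistic of that test. It is not a separate estimate of error and can be too small where a clone has few counts. The library clone19 replicate 3 stood apart: 8.20% of its counts fell on Gm42418, where reads of ribosomal RNA tend to be placed, against 0.212 to 0.440% in the other 9 clone libraries. Without that library 8040 genes were changed and 1197 were over 2-fold, against 8247 and 1214 with it, and 7829 of the 8247 were called in both. It reversed the sign of 8 changed genes, among them Gm42418 and Lars2, whose values were seen before they were named. Gm42418 went from 2.55 to -0.41 and Lars2 from 1.31 to -0.48 on the log2 scale when the library was left out.

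Most of the transcriptome differed between the clones, and most of the differences were small. Of 12671 tested genes, 8247 (65.1%) were changed, 4241 (33.5%) higher in clone19 and 4006 (31.6%) higher in clone1. The median absolute log2 fold change over all tested genes was 0.384, and 52.2% of the changed genes differed by less than 1.5-fold. Differences over 2-fold were found in 1214 genes (9.58%), 607 in each direction (4.79% each). Among these, 740 had a fitted difference over 4-fold and 165 one over 16-fold. In 5745 genes (45.3%) the 5 libraries of 1 clone all lay above the 5 of the other. In a principal component analysis of the 10 libraries the first component held 76.5% of the variance and separated the clones, and the second held 4.73%. The root-mean-square log2 distance between libraries was 0.369 to 0.493 within clone1, 0.365 to 0.503 within clone19 and 1.03 to 1.1 between the clones.

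**Figure D1:**
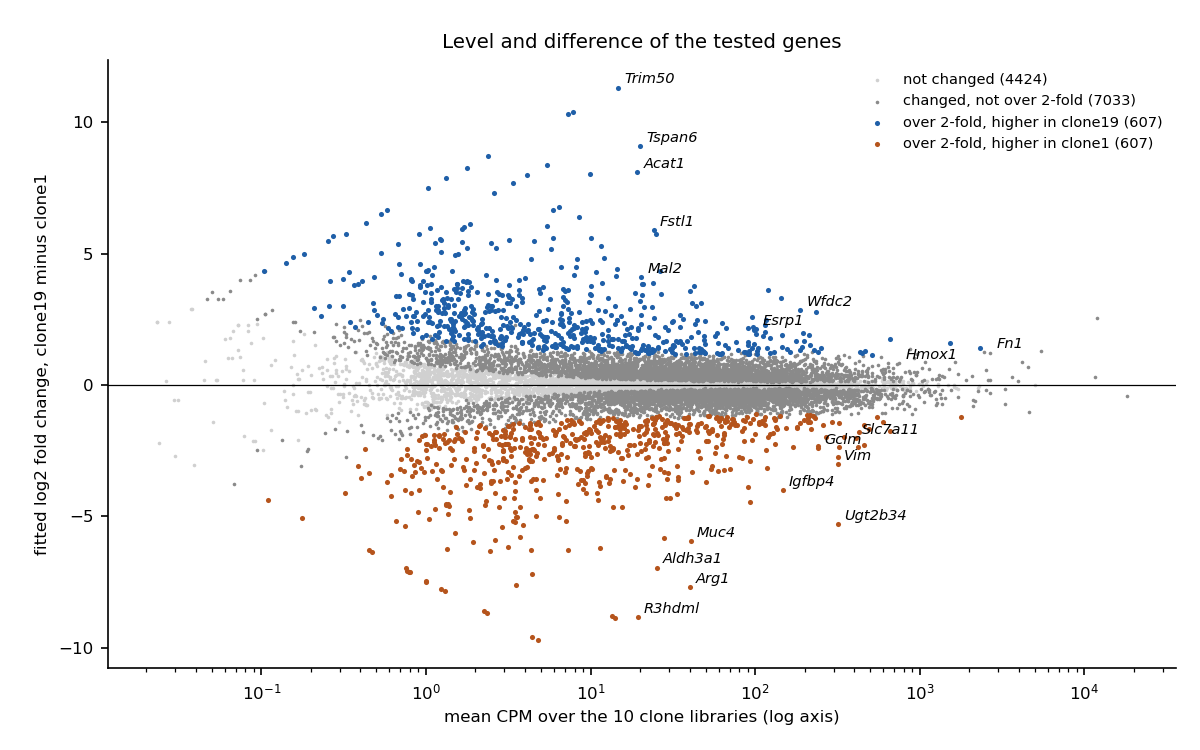
Fitted log2 fold change of clone19 minus clone1 (vertical axis) against the mean CPM over the 10 clone libraries (horizontal log axis) for the tested genes, each point 1 gene, coloured by its call. The 607 genes over 2-fold in each direction reach furthest from 0 at low and middle levels; fitted values of genes with 0 counts in a clone depend on the fit's prior count and are drawn for position only.

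Above 1 CPM the share of genes over 2-fold was smaller at higher levels. It was 16.5% of 660 genes with a mean under 1 CPM, 20.8% of 2876 genes with a mean between 1 and 10 CPM over the 10 clone libraries, 6.22% of 6656 genes between 10 and 100 CPM and 3.79% of 2479 genes at 100 CPM or more. At the top of the range the genes had many functions, and several of those in favour of clone1 belong to conjugation or glutathione metabolism, described below. The 10 genes with the largest difference in CPM in favour of clone19 included Rplp0, a protein of the large ribosomal subunit (1290 ± 126 CPM in clone1 and 3390 ± 240 in clone19), the mitochondrially encoded complex I subunit mt-Nd5, the phosphoprotein Pea15a, the collagen Col8a1, the secreted protease inhibitor-like protein Wfdc2, the proteoglycan Agrn and the prostaglandin transporter Slco2a1. Pea15a stood at 304 ± 12.3 CPM in clone1 and 1020 ± 13 in clone19 (1.75 ± 0.05 (SE), adjusted p = 1.01e-20). In favour of clone1 they included the clathrin heavy chain Cltc (2500 ± 331 against 1070 ± 135 CPM), the UDP-glucose dehydrogenase Ugdh, the glutathione transferases Gstm1 and Gsto1, the cystine transporter subunit Slc7a11, the glucuronosyltransferase Ugt2b34, the intermediate filament gene Vim, the sterol regulator Insig1, the kinase gene Prkg2 and the chaperone-like Hspa4l. The files give reads with several alignments a row of their own, outside the genes, so Rplp0, Ugt2b34 and the Gst genes, which have near-identical copies, carry uncertain counts.

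Fh1 itself (ENSMUSG00000026526, chr1:175600374-175625635, - strand) was counted in every library. It stood at 123, 111, 108, 109 and 112 CPM in clone1 replicates 1 to 5 and at 82, 91.6, 86.1, 90.5 and 73.6 in clone19. The clone1 libraries all lay above those of clone19, by a log2 fold change of -0.41 ± 0.07 (SE), adjusted p = 1.72e-05. The Fh1_fl_fl libraries averaged 92.4 ± 6.16 CPM and Rec 71.3 ± 7.08. The count covers the gene as a whole, including what a deletion would leave, so it does not check the deletion, and the lower level of clone19 says nothing of the remaining enzyme.

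The sharpest differences were genes read in every library of 1 clone and practically absent from the other. A gene is called on in a line at 1 CPM or more in each of its 5 libraries, and off at 3 counts or fewer over the 5 together. Of 11807 genes on in at least 1 clone, 27 were on in clone1 and off in clone19, and 26 were on in clone19 and off in clone1. These sets were chosen by the difference, so their levels in the clones are a description without a test. All 27 of the first set and 25 of the second are protein-coding; the exception is Airn.

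Among genes on in clone1, R3hdml, a gene of the cysteine-rich secretory protein family, had the highest mean. Its libraries held 40, 38.3, 37.2, 35.7 and 42.3 CPM in clone1 and 0, 0, 0.35, 0 and 0.102 in clone19, with 1857 and 3 counts in all, a ratio of 526 (95% counting interval 180 to 2550). Muc5b, a gel-forming mucin of airways, had 28.1 ± 10.6 CPM in clone1 with 2 counts in clone19, and its clone1 libraries spread more widely than those of R3hdml, at 15.6, 31.7, 21.3, 28.6 and 43.4 CPM. Armcx3, an X-linked gene for a mitochondrial outer membrane protein, had 27 ± 3.31 CPM against 2 counts. The cyclic nucleotide phosphodiesterase Pde10a (8.83 ± 1.55 CPM) and the receptor Npy4r (9.56 ± 1.39) had no count in clone19, which makes them at least 121-fold and at least 129-fold higher in clone1, taking 3 counts over the 5 clone19 libraries as the limit. The proprotein convertase Pcsk5, the bHLH factor Atoh8 and the VEGF receptor Flt1 completed the 8 highest, at 8.8, 7.02 and 6.17 CPM.

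Among genes on in clone19, the tetraspanin Tspan6 had the highest mean: 36.2, 51.5, 41.5, 42.1 and 29.6 CPM in clone19 replicates 1 to 5 against 3 counts in all of clone1, a ratio of 636 (95% counting interval 217 to 3090). Trim50, a ubiquitin ligase gene, was read at 25.9, 27.5, 33.3, 33.9 and 25.9 CPM in clone19 and not once in clone1, Fh1_fl_fl or Rec, at least 464-fold higher in clone19 than in clone1. Hopx, a small homeodomain-only protein, showed the same pattern at 14.5 ± 1.64 CPM, at least 228-fold higher. The calcium sensor gene Syt7 (19.7 ± 3.62 CPM) and the vesicle protein gene Sytl4 (15.6 ± 1.77) act in exocytosis, Ildr1 (8.15 ± 0.839) belongs to tricellular junctions, Dsc2 (6.7 ± 1.1) is a desmosomal cadherin, and Fam169b (10.9 ± 1.87) is little described.

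The levels in Fh1_fl_fl and Rec did not enter the choice. Of the 27 genes on in clone1 only, 3 were also on in Fh1_fl_fl, 6 were off there and 18 lay between; in Rec 1 was on, 11 were off and 15 lay between. Of the 26 genes on in clone19 only, 10 were on in Fh1_fl_fl, 5 were off and 11 lay between; in Rec 0 were on, 16 were off and 10 lay between. The difference between the sets was not tested. Over all 11284 genes on in clone1, 95.8% were on in Fh1_fl_fl and 0.514% off, and 94.4% were on in Rec and 1.08% off. Over the 11418 genes on in clone19 these shares were 95.6% and 0.578%, and 94.1% and 0.955%. Armcx3 is a gene that Fh1_fl_fl had and clone19 lacked (27.2 ± 2.92 CPM in Fh1_fl_fl, 0.822 in Rec). Tspan6 (17.2 ± 1.86 CPM), Ildr1 (7.8 ± 0.451), Dsc2 (19.5 ± 1.57) and the imprinted genes Cdkn1c (10.2 ± 0.606) and Plagl1 (3 ± 0.541) are genes that Fh1_fl_fl had and clone1 lacked. In each set 5 genes were off in both Fh1_fl_fl and Rec. On the X chromosome, which holds 3.28% of the tested genes, lay 6 of the 26 genes on in clone19 and 2 of the 27 on in clone1.

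**Figure D2:**
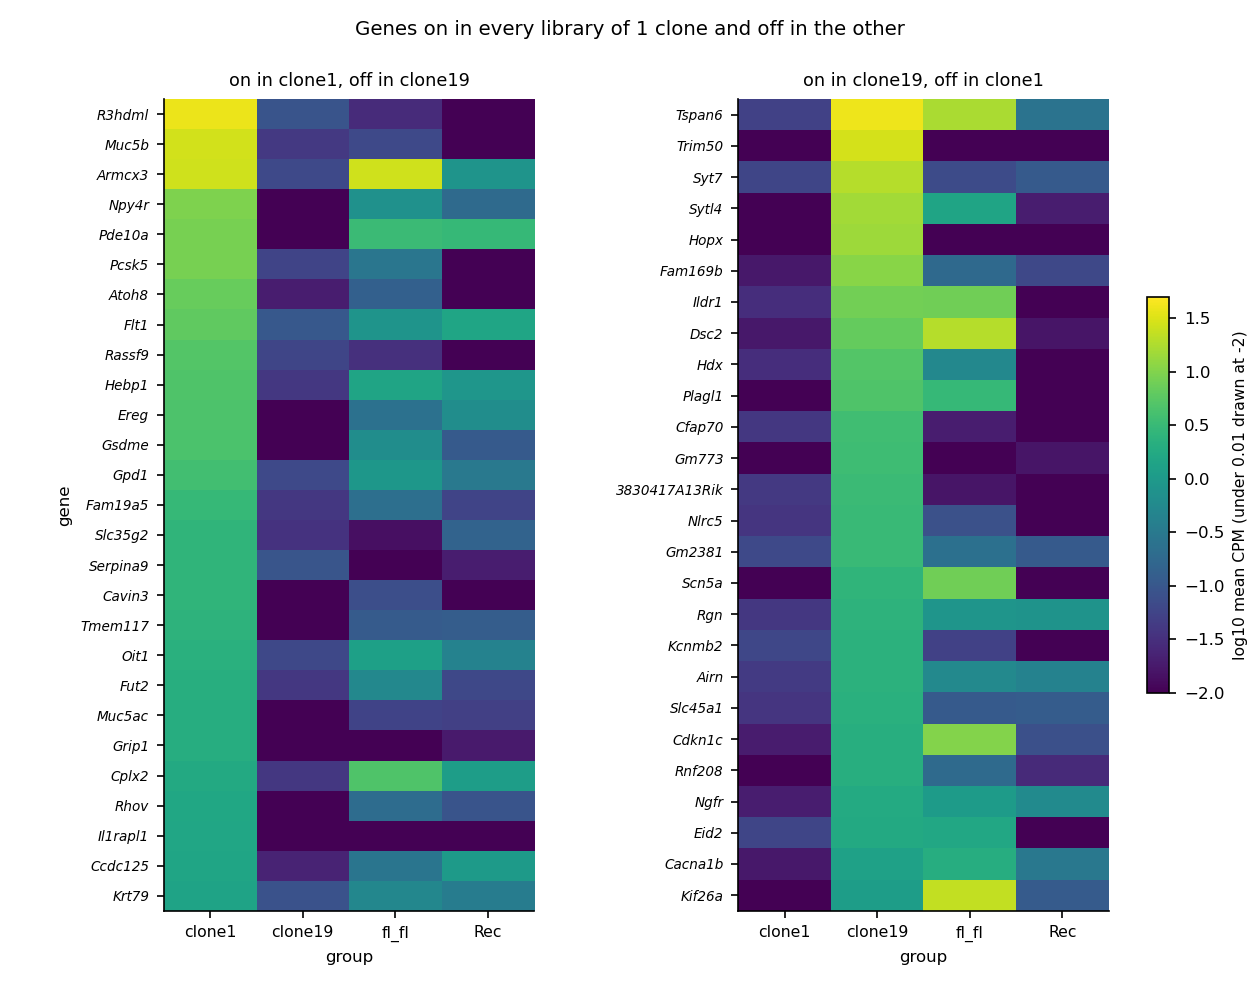
Mean CPM on a log10 colour scale of the 27 genes on in clone1 and off in clone19 (left) and of the 26 genes on in clone19 and off in clone1 (right), with rows as genes and columns as the 4 lines (fl_fl is Fh1_fl_fl), 5 libraries each. The Fh1_fl_fl column is bright for Armcx3 on the left and for Tspan6, Dsc2 and Cdkn1c on the right, and the Rec column is dark for most genes of the right panel.

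The start sites of 4 of these genes are shown because they cover both directions and both kinds of promoter, those rich and those poor in CpG dinucleotides, the sites of DNA methylation in mammals. Each run is the 250 bases before the RefSeq start site (GRCm38.p6), written 5′ to 3′ on the gene's strand, with CpG dinucleotides in capitals. R3hdml (chr2:163492068-163492317, + strand) and Atoh8 (chr6:72235578-72235827, - strand) were on in clone1, and Hopx (chr5:77115124-77115373, - strand) and Ildr1 (chr16:36693728-36693977, + strand) in clone19.
R3hdml: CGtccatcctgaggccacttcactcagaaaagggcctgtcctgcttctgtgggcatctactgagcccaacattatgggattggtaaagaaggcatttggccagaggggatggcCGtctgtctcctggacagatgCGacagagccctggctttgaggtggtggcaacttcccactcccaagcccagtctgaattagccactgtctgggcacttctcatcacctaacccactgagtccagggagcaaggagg
Atoh8: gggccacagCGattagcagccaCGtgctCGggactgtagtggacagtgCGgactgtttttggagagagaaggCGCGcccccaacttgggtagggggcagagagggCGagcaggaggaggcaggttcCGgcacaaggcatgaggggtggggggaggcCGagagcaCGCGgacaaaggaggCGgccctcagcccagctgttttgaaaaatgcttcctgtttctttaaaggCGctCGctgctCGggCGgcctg
Hopx: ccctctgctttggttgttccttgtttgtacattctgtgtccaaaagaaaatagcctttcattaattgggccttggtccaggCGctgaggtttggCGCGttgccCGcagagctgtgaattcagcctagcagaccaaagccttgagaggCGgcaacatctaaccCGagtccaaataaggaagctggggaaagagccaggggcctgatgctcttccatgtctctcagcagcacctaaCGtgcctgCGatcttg
Ildr1: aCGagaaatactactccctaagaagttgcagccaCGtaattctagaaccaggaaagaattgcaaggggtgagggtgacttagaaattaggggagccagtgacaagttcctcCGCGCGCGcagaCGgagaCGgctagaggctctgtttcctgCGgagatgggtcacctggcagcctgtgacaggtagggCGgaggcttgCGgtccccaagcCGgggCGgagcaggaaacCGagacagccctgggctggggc

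Counted over 300 bases (250 before and 50 after the start), these promoters hold 5 CpG in R3hdml, 24 in Atoh8, 8 in Hopx and 17 in Ildr1. A promoter is called CpG-rich here at an observed over expected CpG ratio of 0.6 or more and at least 50% G and C. Of the 9693 tested genes matched to a RefSeq promoter, 71.2% were CpG-rich. The share was 74.5% among genes changed but not over 2-fold and 71.4% among genes not changed. It was 45.5% of 442 genes over 2-fold higher in clone1 and 52.8% of 434 genes over 2-fold higher in clone19. Of the genes on in 1 clone only, 8 of 17 with a promoter (47.1%) were CpG-rich for clone1 and 6 of 17 (35.3%) for clone19. Genes of low level are CpG-rich less often, so the shares are also given within levels: between 10 and 100 CPM 55.7% of 307 genes over 2-fold and 76.7% of 5032 others, and at 100 CPM or more 58.2% of 67 and 82.7% of 1876. Between 1 and 10 CPM the shares were 42.9% of 415 and 57.7% of 1596. Below 1 CPM they were 48.3% of 87 and 44.1% of 313, the opposite order. Methylation was not measured, and its part in these differences was not tested.

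Gene lists for the pathways and cell types that fit this tissue and mutation are described by counts of tested members and by the list median, beside the 33.5% of all tested genes higher in clone19, the 31.6% higher in clone1 and the median log2 fold change of 0.02 over all tested genes. In bulk RNA, fewer cells with a message and less message per cell cannot be told apart.

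**Figure D3:**
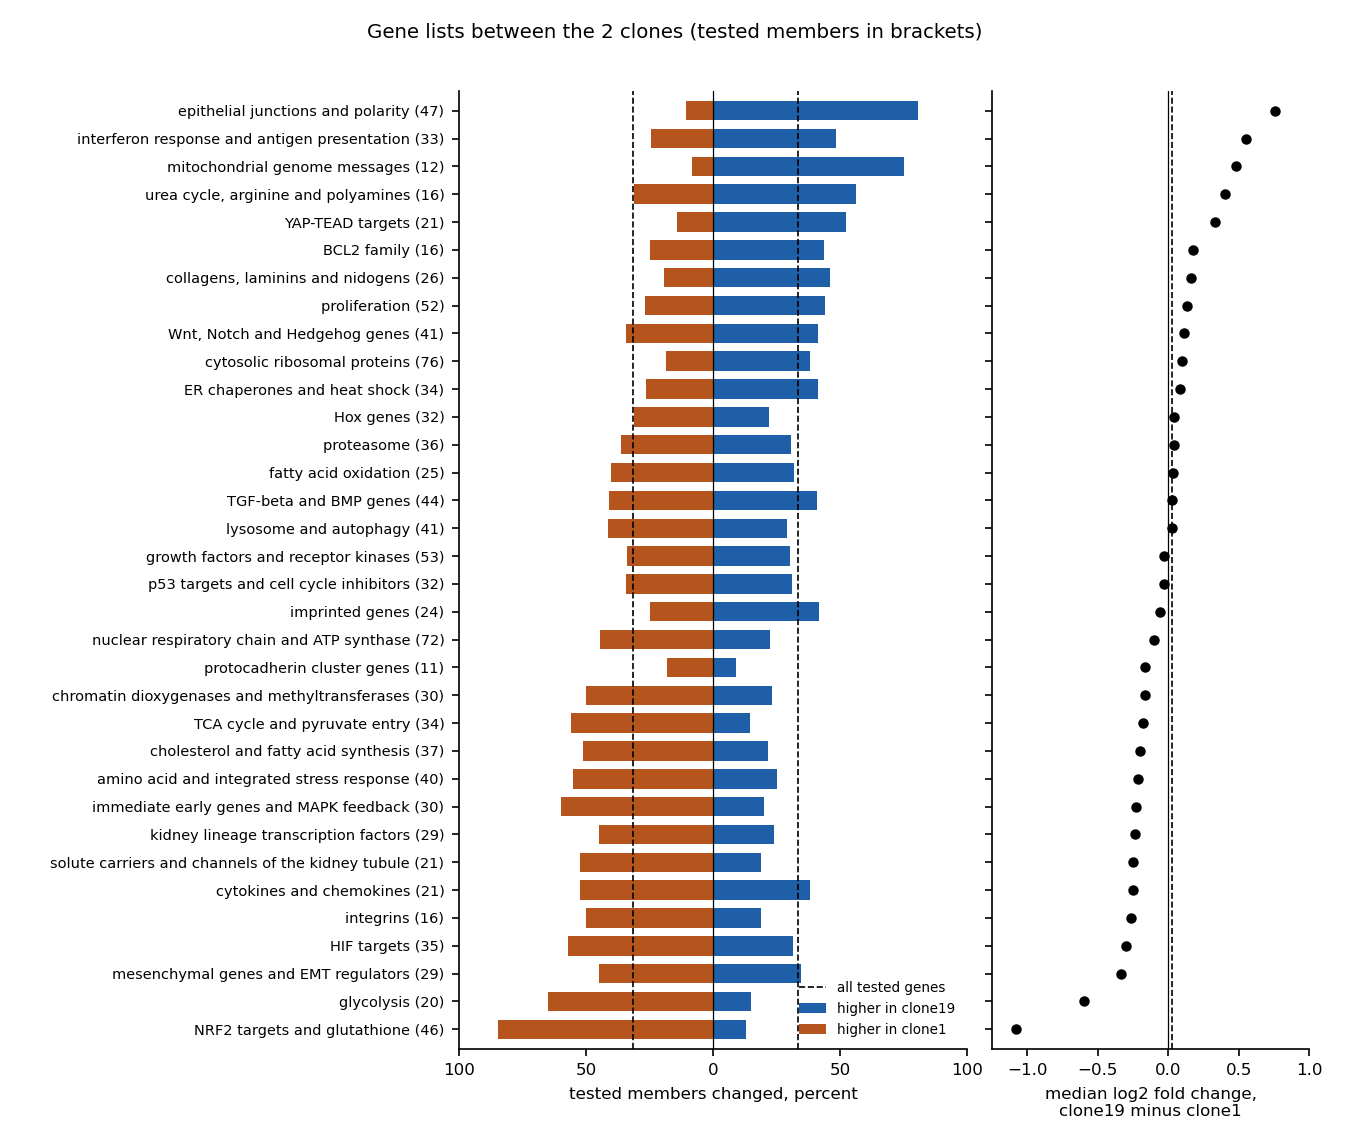
Left, percent of the tested members of each list (rows, number tested in brackets, lists of at least 10) higher in clone19 (to the right) or in clone1 (to the left), with dashed lines at the 33.5% and 31.6% of all tested genes. Right, median log2 fold change of the list; NRF2 targets lie lowest at -1.08 and the epithelial list highest at 0.76.

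Epithelial junction and polarity genes were mostly higher in clone19. Of 47 listed genes, all tested, 38 were higher in clone19 and 5 in clone1, with 13 and 2 over 2-fold and a median log2 fold change of 0.76. Epcam, an adhesion molecule of epithelia, stood at 104, 83.3, 68.7, 80.8 and 97.1 CPM in clone1 and at 221, 243, 237, 216 and 214 in clone19. Every clone19 library lay above every clone1 library (1.38 ± 0.08 (SE), adjusted p = 2.91e-14), and both lines lay below the 439 ± 29.2 CPM of Fh1_fl_fl. Esrp1, a splicing factor that sets epithelial isoforms, had 38.2, 39.8, 38.3, 35.4 and 35.7 CPM in clone1 and 173, 166, 161, 157 and 171 in clone19 (2.14 ± 0.06 (SE), adjusted p = 1.97e-21). The clone19 values were close to the means of Fh1_fl_fl (171) and Rec (183), a side-by-side reading without a test. Mal2, a protein of apical transport, rose from 2.22 ± 0.279 in clone1 to 38.5 ± 5.87 CPM in clone19 (4.09 ± 0.12 (SE), adjusted p = 2.03e-20), with 400 in Fh1_fl_fl.

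The claudin Cldn3 (3.63 ± 0.915 and 14.8 ± 2.55 CPM, log2 fold change 2.01) and the clathrin adaptor subunit Ap1m2 (1.38 ± 0.424 and 18.8 ± 1.74, 3.75) were also over 2-fold higher in clone19. E-cadherin (Cdh1) differed less, at 168 ± 30.3 CPM in clone1 and 272 ± 19.2 in clone19 (0.69 ± 0.10 (SE), adjusted p = 7.03e-07). The 5 list members higher in clone1 were the claudin Cldn8 (33 counts in clone1 and 2 in clone19, a ratio of 14 (95% counting interval 3.58 to 121) in favour of clone1), the ETS factor Ehf (-1.87), and, with smaller differences, the junction proteins Tjp1 (-0.54), Jup (-0.43) and Ctnnd1 (-0.23); all but Cldn8 are named after their values were seen. Keratins went the other way from most junction genes. Of 7 tested members of the keratin list 2 were higher in clone19 and 4 in clone1, none over 2-fold. Krt79, outside that list and named after its values were seen, had 65 counts in clone1 and 3 in clone19. That is a ratio of 18.4 (95% counting interval 6.02 to 91.5) in favour of clone1. Krt18 stood at 802 ± 80.4 and 386 ± 24.7 CPM (-1.06), Krt8 at 381 ± 37.1 and 243 ± 23 (-0.65) and Krt19 at 639 ± 71.2 and 458 ± 28.1 (-0.48), all higher in clone1, and Krt7, named after its values were seen, was higher in clone19 (1.1).

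The mesenchymal list divided between the clones. Of 29 tested genes 10 were higher in clone19 and 13 in clone1, 4 and 4 over 2-fold, with a median of -0.34. Vim, which encodes the intermediate filament protein vimentin (chr2:13573927-13582826, + strand), stood at 621, 531, 555, 533 and 593 CPM in clone1 and 71.2, 66.7, 65.3, 71.5 and 73 in clone19. The 2 sets of libraries were far apart (-3.03 ± 0.07 (SE), adjusted p = 3.31e-22), and both lay above the 7.66 ± 1.01 CPM of Fh1_fl_fl and 1.16 ± 0.284 of Rec. Zeb1, a repressor of epithelial genes, had 40.5, 53.4, 48.6, 51.5 and 58.7 CPM in clone1 and 19.2, 15.3, 18.2, 16.7 and 18.4 in clone19 (-1.53 ± 0.12 (SE), adjusted p = 1.26e-11), again without overlap. Its relative Zeb2 differed by -0.46, at 69.4 ± 7.58 and 50.5 ± 3.75 CPM, and the bHLH factor Twist2 by -3.68, at 20.9 ± 2.71 and 1.59 ± 0.397. In the other direction, the mesenchymal cadherin Cdh11 stood at 3.58 ± 1.15 and 37.7 ± 4.02 CPM (3.41), the proteoglycan decorin (Dcn) at 1.16 ± 0.402 and 8.5 ± 0.597 (2.83) and fibronectin (Fn1) at 1600 ± 365 and 3750 ± 824 (1.23).

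**Figure D4:**
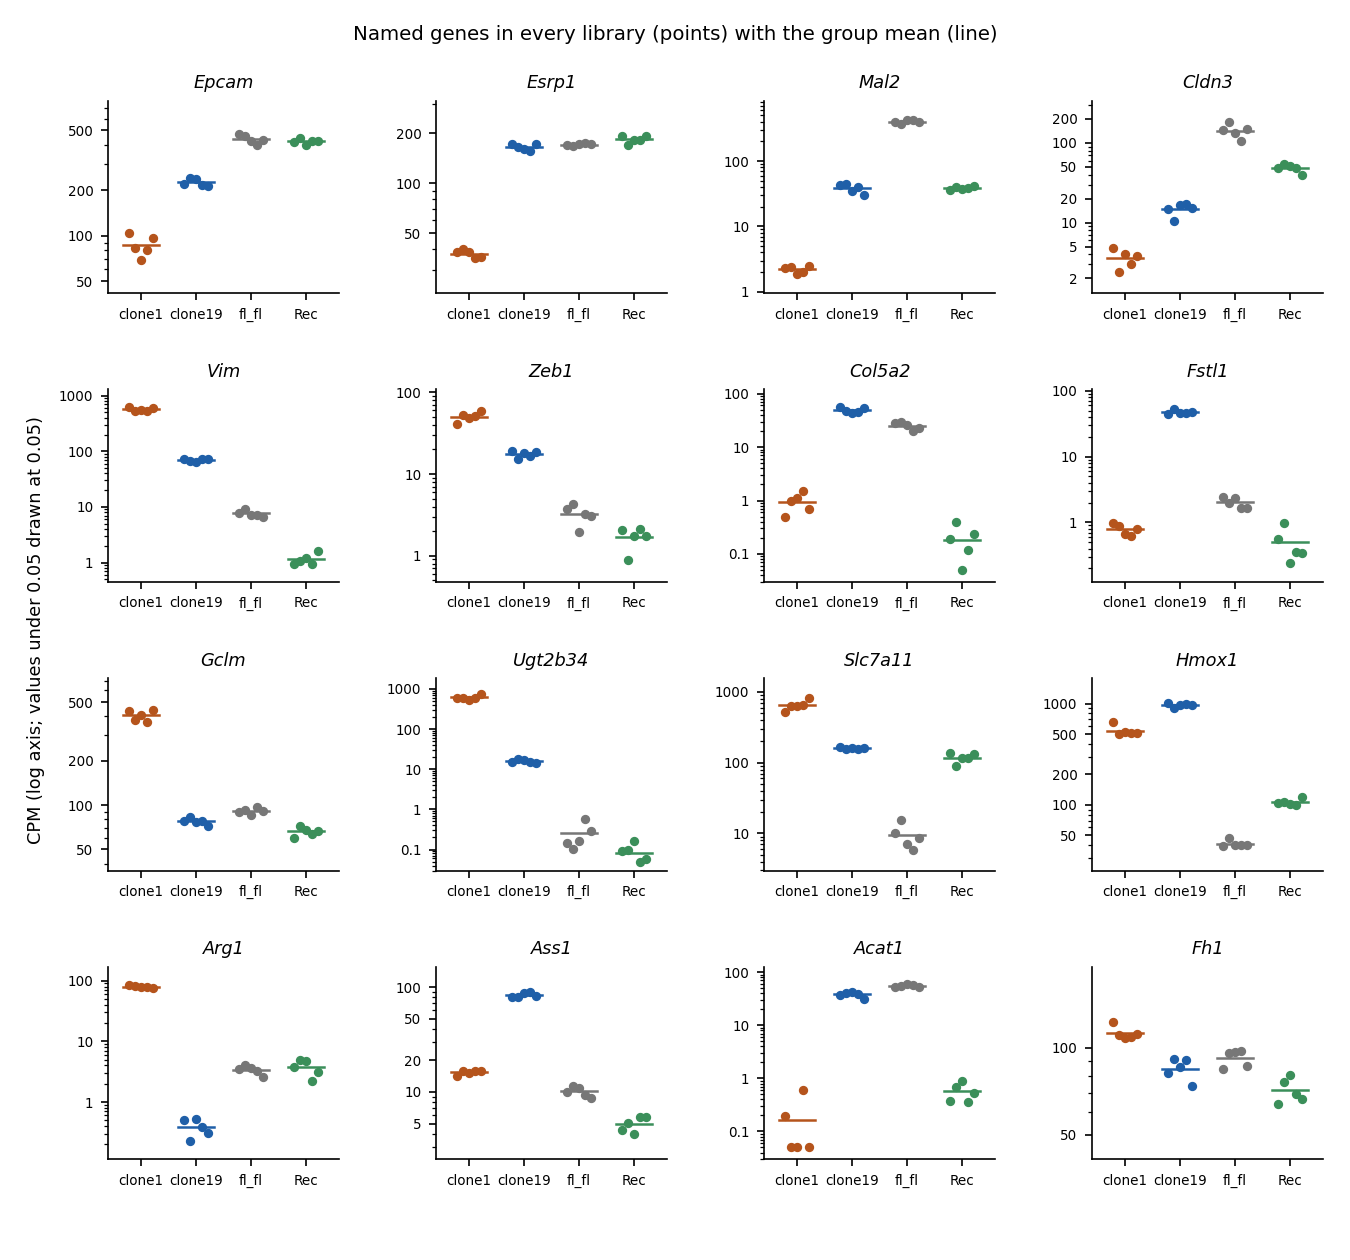
CPM on log axes of 16 named genes in every library (points) with the mean of each line (horizontal bar); the lines are clone1, clone19, Fh1_fl_fl (fl_fl) and Rec, 5 libraries each. Clone1 and clone19 points do not overlap in any of the 16 panels: Epcam, Esrp1, Mal2, Cldn3, Col5a2, Fstl1, Hmox1, Ass1 and Acat1 are higher in clone19, and Vim, Zeb1, Gclm, Ugt2b34, Slc7a11, Arg1 and Fh1 in clone1.

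Matrix genes over 2-fold were all higher in clone19. Of 26 tested collagens, laminins and nidogens, 12 were higher in clone19, 7 of them over 2-fold, and 5 were higher in clone1, 0 over 2-fold; the list median was 0.16. The fibrillar collagen gene Col5a2 had 0.498, 0.969, 1.1, 1.53 and 0.694 CPM in clone1 and 56.2, 47.2, 43.1, 46 and 53.7 in clone19 (5.74 ± 0.19 (SE), adjusted p = 1.27e-19). Rec, at 0.186 ± 0.145 CPM, was lower still than clone1, and Fh1_fl_fl stood at 25.3 ± 3.9. Col8a1, a short-chain collagen, had 60.2 ± 9.83 and 410 ± 14.4 CPM (2.76), and Col12a1, which associates with fibrils, 5.87 ± 1.4 and 79.9 ± 15 (3.77). The basement membrane genes Col4a1 and Col4a2, which share a promoter region head to head, differed unequally: Col4a1 by 1.1 ± 0.15 (SE), adjusted p = 3.61e-07, and Col4a2 by 0.15 ± 0.17 (SE), adjusted p = 0.468, with overlapping libraries. Col1a1 was low in both lines and higher in clone1 (3.45 ± 0.447 and 1.41 ± 0.442 CPM, -1.28).

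Among 16 tested integrins, 3 were higher in clone19 and 8 in clone1, 1 and 4 over 2-fold. The beta subunit Itgb3 stood at 80.3 ± 8.56 and 11.8 ± 1.63 CPM (-2.77), Itga2 at 45.9 ± 13.7 and 10.1 ± 2.12 (-2.22), Itgb7 at 19.7 ± 2.96 and 4.33 ± 0.892 (-2.18) and Itga6 at 347 ± 65.3 and 172 ± 5.79 (-1.01), all higher in clone1. Itgb2, best known from leukocytes, was higher in clone19 (2.8 ± 0.594 and 15 ± 1.16 CPM, 2.39). The common partner Itgb1 was slightly higher in clone19 (0.21, adjusted p = 0.0297), a call lost without clone1 replicate 3 (adjusted p = 0.109) and 6 other single libraries. Without clone19 replicate 2, 7 integrins in place of 11 were changed. Of 43 listed genes of the clustered protocadherins, 22 were matched to a counted gene and 11 were tested. Those without a match were all of the gamma cluster, so the list says little of it. Among the 11 tested, 1 was higher in clone19 and 2 in clone1, none over 2-fold.

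NRF2 target and glutathione genes were mostly higher in clone1. NRF2, encoded by Nfe2l2, binds antioxidant response elements with small MAF proteins and drives genes for glutathione synthesis, conjugation, NADPH supply and iron handling. Of 46 tested members 39 were higher in clone1 and 6 in clone19, with 20 and 1 over 2-fold and a median of -1.08. Gclm, the regulatory partner of glutamate-cysteine ligase (chr3:122245557-122270732, + strand), stood at 436, 381, 408, 365 and 439 CPM in clone1 and 78.5, 82.5, 77, 77.4 and 72.1 in clone19. The lines did not overlap (-2.39 ± 0.06 (SE), adjusted p = 5.27e-21), and the clone19 mean lay beside those of Fh1_fl_fl (91.1 ± 3.89) and Rec (66.2 ± 4.78). Slc7a11, which imports the cystine that glutathione needs, had 526, 641, 640, 659 and 817 CPM in clone1 and 166, 156, 161, 155 and 162 in clone19 (-2.04 ± 0.13 (SE), adjusted p = 4.94e-13). In this gene both clones lay above the 9.38 ± 3.74 CPM of Fh1_fl_fl.

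Wide margins were found in conjugation and detoxification genes. Ugt2b34, a glucuronosyltransferase, had 597, 601, 543, 597 and 767 CPM in clone1 and 15.4, 17.9, 17.3, 15.4 and 14.1 in clone19 (-5.28 ± 0.10 (SE), adjusted p = 9.6e-24), against 0.255 in Fh1_fl_fl. The aldehyde dehydrogenase Aldh3a1 stood at 50.2 ± 4.58 and 0.357 ± 0.338 CPM (-6.95), the carbonyl reductase Cbr3 at 58.4 ± 6.67 and 2.89 ± 0.468 (-4.32), and the glutathione transferases Gsta1 at 169 ± 14.5 and 11.6 ± 3.65 (-3.88) and Gsta2 at 6.6 ± 0.846 and 0.162 ± 0.119 (-5.17). Gstm1 differed by -2.28, Gsto1 by -1.67 and Ugdh, which makes the sugar that glucuronosyltransferases use, by -1.75. Heme oxygenase (Hmox1) was higher in clone19, with 650, 495, 529, 515 and 516 CPM in clone1 and 1010, 899, 968, 981 and 968 in clone19 (0.84 ± 0.07 (SE), adjusted p = 3.96e-11); Nqo1 differed little, at 17.3 ± 1.3 and 13.5 ± 2.2 CPM (-0.36 ± 0.13 (SE), adjusted p = 0.0167), with overlapping libraries and an adjusted p = 0.0661 without clone19 replicate 5.

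The other 5 list members higher in clone19, named after their values were seen, were the reductase Ptgr1 (3.05, 0.497 and 4.24 CPM), Osgin1 (0.97), the transporter Abcg2 (0.57), thioredoxin Txn1 (0.28) and the glutathione synthase Gss (0.27), whose call was lost without clone19 replicate 1 (adjusted p = 0.173) and without 2 other single libraries. Nfe2l2 itself, also named after its values were seen, stood at 258 ± 14.2 and 149 ± 9.14 CPM (-0.80 ± 0.06 (SE), adjusted p = 3.87e-12), and its inhibitor Keap1 at 30.2 ± 2.49 and 43 ± 3.4 (0.51 ± 0.07 (SE), adjusted p = 3.98e-07); messages do not measure the protein.

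The promoter of Gclm is printed because it carries the core of the antioxidant response element, searched as TGACNNNGC on both strands, with the match in capitals (chr3:122245307-122245556, + strand, GRCm38.p6, 250 bases before the RefSeq start). The match lies on the opposite strand and begins 134 bases before the start.
Gclm: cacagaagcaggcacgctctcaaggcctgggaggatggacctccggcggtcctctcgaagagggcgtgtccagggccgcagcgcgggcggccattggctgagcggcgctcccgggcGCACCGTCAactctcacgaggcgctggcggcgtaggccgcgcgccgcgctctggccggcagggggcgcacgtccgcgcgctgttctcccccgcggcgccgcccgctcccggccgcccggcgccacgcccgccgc
Within 300 bases around the start, 10 of the 36 tested list members with a RefSeq promoter (27.8%) held the motif, against 15.0% of all 9693 promoters, 13.8% of those of genes over 2-fold higher in clone1 and 12% of those over 2-fold higher in clone19. A match is a run of letters, not a bound site, and these elements often lie further from the start than the window reaches.

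HIF targets were divided, with more members higher in clone1. Of 35 tested 11 were higher in clone19 and 20 in clone1, 2 and 3 over 2-fold, with a median of -0.30. Vegfa, the angiogenic growth factor, stood at 484 ± 24.1 and 338 ± 10.3 CPM (-0.52 ± 0.06 (SE), adjusted p = 1.27e-08), Bnip3, a receptor of mitophagy, at 568 ± 32.8 and 311 ± 61.5 (-0.87) and Ndrg1 at 547 ± 28.4 and 377 ± 11.2 (-0.54). In these 3 genes both clones lay above the means of Fh1_fl_fl, which were 107, 120 and 190 CPM. The hormone gene Adm (-1.93) and the lysyl oxidase Loxl2 (-2.33) were over 2-fold higher in clone1. Stc2, a secreted glycoprotein (1.5 ± 0.619 and 27.2 ± 3.56 CPM, 4.16), and Pfkfb4, a bifunctional regulator of glycolysis (7.62 ± 1.41 and 24.6 ± 1.91, 1.68), were over 2-fold higher in clone19. The HIF target Car9, a carbonic anhydrase, was near 0 in both clones (0.0394 and 0.0197 CPM) and was not tested.

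Glycolytic genes were mostly higher in clone1. Of 20 tested 13 were higher in clone1 and 3 in clone19, with a median of -0.59; the 1 over 2-fold was the phosphofructokinase Pfkm (315 ± 10 and 118 ± 6.65 CPM, -1.41 ± 0.06 (SE), adjusted p = 2.07e-17). Its isoform Pfkp was higher in clone19 (105 ± 3.02 and 145 ± 7.59 CPM, 0.46 ± 0.07 (SE), adjusted p = 9.66e-07), and the other 2 members higher in clone19, named after their values were seen, were Pgk1 (0.22) and Pkm (0.14), whose call was lost without clone19 replicate 1 (adjusted p = 0.25) and without 7 other single libraries. Hexokinase Hk2 stood at 581, 629, 614, 635 and 674 CPM in clone1 and 421, 333, 356, 352 and 413 in clone19 (-0.74 ± 0.07 (SE), adjusted p = 1.73e-10), with no overlap. Lactate dehydrogenase Ldha had 2370 ± 247 and 2160 ± 80.8 CPM, a difference of -0.13 that did not pass the test (adjusted p = 0.0928).

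TCA cycle genes were also more often higher in clone1: 19 of 34 against 5 higher in clone19, median -0.18. Cytosolic Idh1, which makes 2-oxoglutarate and NADPH, was the 1 member over 2-fold, with 212, 170, 189, 186 and 200 CPM in clone1 and 52.8, 54.7, 43.2, 46.2 and 44.9 in clone19 (-1.98 ± 0.07 (SE), adjusted p = 2.74e-18). Sdha, the flavoprotein of succinate dehydrogenase, stood at 420 ± 25.4 and 257 ± 15.4 CPM (-0.71 ± 0.06 (SE), adjusted p = 1.62e-11). The pyruvate carboxylase Pcx had 77.8 ± 10.9 and 74.6 ± 10.5 CPM (-0.07, adjusted p = 0.557). Of 72 tested nuclear genes of the respiratory chain and ATP synthase 16 were higher in clone19 and 32 in clone1, none over 2-fold, with a median of -0.10. Cox4i1 differed by 0.23 and Ndufs1 by 0.09 (adjusted p = 0.0196 and 0.146); the call of Cox4i1 was lost without clone1 replicate 5 (adjusted p = 0.0902) and without 3 other single libraries.

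Messages of the mitochondrial genome differed to unequal degrees. Of 12 tested 9 were higher in clone19 and 1, mt-Co1, in clone1. The complex I subunit mt-Nd5 had 724, 852, 979, 756 and 509 CPM in clone1 and 1660, 2840, 2460, 2230 and 2290 in clone19 (1.59 ± 0.15 (SE), adjusted p = 4.02e-10). The clone19 libraries lay above those of clone1. Its neighbour in function mt-Nd3 stood at 138 ± 17.8 and 364 ± 88.4 CPM (1.40), mt-Nd1 at 1250 ± 161 and 1550 ± 251 (0.30, adjusted p = 0.135 without clone1 replicate 5, the highest of 4 single libraries whose loss ended the call), and mt-Co1, a core subunit of cytochrome oxidase, at 21100 ± 1970 and 15600 ± 1870 (-0.44 ± 0.12 (SE), adjusted p = 0.0017). Nuclear copies of the mitochondrial genome can take its reads as non-unique, so these counts are uncertain.

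A reversal between isozymes stood out in arginine metabolism. Arg1, the arginase of the cytosol, stood at 84, 81.6, 79.5, 77.3 and 75.6 CPM in clone1 and 0.498, 0.23, 0.525, 0.394 and 0.307 in clone19. Fh1_fl_fl and Rec lay between, at 3.41 ± 0.531 and 3.75 ± 1.1 CPM, and the clones differed by -7.70 ± 0.18 (SE), adjusted p = 3.31e-22. The mitochondrial arginase Arg2 was higher in clone19 (2.96 ± 0.698 and 13.7 ± 3.02 CPM, 2.20 ± 0.18 (SE), adjusted p = 5.23e-11). Argininosuccinate synthase (Ass1), which joins citrulline and aspartate, had 14.3, 15.7, 15.2, 16 and 15.7 CPM in clone1 and 79.6, 79.9, 86.8, 89 and 81.5 in clone19 (2.44 ± 0.08 (SE), adjusted p = 1.92e-19), both above the 10.1 ± 1.02 CPM of Fh1_fl_fl. Argininosuccinate lyase (Asl), which releases fumarate, stood at 24.7 ± 3.09 and 33.9 ± 2.85 CPM (0.45), and the creatine kinase gene Ckb at 0.562 ± 0.243 and 22.5 ± 3.27 (5.28). Of the 16 tested genes of the urea cycle, arginine and polyamines 9 were higher in clone19 and 5 in clone1, 3 and 1 over 2-fold. Odc1, which starts polyamine synthesis, had 187 ± 14.2 and 195 ± 10.1 CPM (adjusted p = 0.294).

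Genes of the amino acid and integrated stress response were more often higher in clone1, 22 of 40 tested against 10, with a median of -0.21. Asparagine synthetase (Asns) stood at 967 ± 94.6 and 604 ± 30.3 CPM (-0.68 ± 0.07 (SE), adjusted p = 3.38e-09), the transcription factors Atf4 at 650 ± 51.2 and 510 ± 30.2 (-0.35) and Ddit3 at 342 ± 23.1 and 206 ± 14.4 (-0.73), and the neutral amino acid transporter Slc1a4 at 209 ± 37.8 and 64.9 ± 7.54 (-1.69). Fgf21, a secreted factor of this response, was low and over 2-fold higher in clone1 (5.2 and 1.61 CPM). Chac1, which degrades glutathione, had 123 ± 8.88 and 120 ± 8.99 CPM (adjusted p = 0.708). Of 34 tested chaperones of the endoplasmic reticulum and the heat shock response 14 were higher in clone19 and 9 in clone1. The abundant chaperone Hspa5 was read at 2340 ± 327 and 2260 ± 106 CPM (adjusted p = 0.547), the factor Xbp1 was higher in clone1 (-1.1), and the small heat shock gene Hspb8 stood at 0.127 ± 0.122 and 6.23 ± 1.07 (5.51).

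Acat1, the mitochondrial acetoacetyl-CoA thiolase of ketone body and isoleucine metabolism (chr9:53580522-53610382, - strand), stood at 0.199, 0, 0, 0.611 and 0 CPM in clone1, 38, 40.2, 42.4, 39.4 and 31.2 in clone19, 55.6 ± 2.31 in Fh1_fl_fl and 0.567 ± 0.229 in Rec. Clone1 and Rec were near 0, and clone19 and Fh1_fl_fl were not (8.11 ± 0.25 (SE), adjusted p = 5.01e-20). With 6 counts in all of clone1, the size of this difference is less certain than its SE says. Sterol and fatty acid synthesis genes were more often higher in clone1 (19 of 37 against 8, median -0.20). Insig1, which holds back sterol synthesis, had 666 ± 21.5 and 192 ± 11.6 CPM (-1.80). Fatty acid synthase (Fasn) had 227 ± 29.6 and 254 ± 61.1 CPM (adjusted p = 0.232). In fatty acid oxidation 8 of 25 were higher in clone19 and 10 in clone1. The regulator Ppara was over 2-fold higher in clone1 (5.01 ± 0.459 and 0.885 ± 0.264 CPM, -2.51), and the carnitine transferase Cpt1a differed by -0.33.

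In the interferon and antigen presentation list 16 of 33 tested were higher in clone19 and 8 in clone1, 4 and 1 over 2-fold, with a median of 0.55. Nlrc5, a transactivator of class I genes, had 2 counts in clone1 and stood at 2.32, 3, 4.03, 3.15 and 3.79 CPM in clone19, a ratio of 77.7 (95% counting interval 21.1 to 649). Beta-2-microglobulin (B2m) stood at 280, 220, 212, 211 and 262 CPM in clone1 and 436, 461, 364, 394 and 380 in clone19 (0.78 ± 0.08 (SE), adjusted p = 1.09e-09). The clone19 libraries all lay above those of clone1. The peptide transporter Tap2 (2.96 ± 0.932 and 8.65 ± 1.96 CPM), the class I genes H2-K1 (0.58) and H2-D1 (1.25, named after its values were seen), and Oas1a (0.224 and 4.44 CPM, 4.19) were higher in clone19, while Ifit3 was higher in clone1 (-1.55). Isg15, an abundant interferon target elsewhere, was under 0.3 CPM in both means and was not tested. Class I genes have close relatives, so their counts are uncertain.

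Of 21 tested cytokines and chemokines 8 were higher in clone19 and 11 in clone1, 2 and 6 over 2-fold. Ccl20, a chemokine of epithelia, stood at 47.6, 34.6, 33.5, 35.6 and 38.4 CPM in clone1 and 5.31, 6.22, 6.48, 4.43 and 5.53 in clone19 (-2.78 ± 0.13 (SE), adjusted p = 1.66e-16). Ccl2 had 19.5 ± 2.71 and 7.98 ± 1.47 CPM (-1.27), Ccl7 9.69 ± 2.06 and 1.54 ± 0.476 (-2.61), Cxcl15 8.56 ± 1.7 and 0.099 ± 0.0959 (-6.28) and Cxcl1 69 counts against 3 (a ratio of 19.5 (95% counting interval 6.41 to 97)), all higher in clone1. Il6 was near 0 in both lines and was not tested.

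In the TGF-beta and BMP family 18 of 44 tested genes were higher in clone19 and 18 in clone1, 7 and 5 over 2-fold. The secreted glycoprotein Fstl1 stood at 0.996, 0.872, 0.66, 0.611 and 0.781 CPM in clone1 and 43.8, 53.3, 46.6, 46.3 and 47.6 in clone19 (5.88 ± 0.16 (SE), adjusted p = 5.82e-21), and neither Fh1_fl_fl (2.02 ± 0.376) nor Rec (0.498 ± 0.294) came near the clone19 level. Fstl3, which binds activins, had 0.277 ± 0.171 and 8.39 ± 1.37 CPM (4.77), and the activin subunit Inhbb 0.131 ± 0.138 and 5.17 ± 0.668 (5.22). Others were higher in clone1: Id1, which responds to BMP signals, stood at 60.3, 42.4, 45.9, 42 and 43 CPM in clone1 and 11.1, 9.68, 11, 13.8 and 10.5 in clone19 (-2.05 ± 0.11 (SE), adjusted p = 1.37e-14), the receptor-regulated Smad9 at 2.65 ± 0.462 and 0.108 ± 0.0701 (-4.60), and the ligand Bmp4 at 27.7 ± 1.24 and 14.5 ± 1.28 (-0.93). Tgfb1 differed by -0.33 (adjusted p = 0.00916).

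In Wnt, Notch and Hedgehog signalling 17 of 41 were higher in clone19 and 14 in clone1, 7 and 4 over 2-fold. The non-canonical ligand Wnt5a was higher in clone1 (17.3 ± 1.99 and 1.75 ± 0.551 CPM, -3.35), and its relative Wnt5b was higher in clone19, at low counts (0.0347 and 0.695 CPM). Ror1, a receptor of Wnt5 ligands, was higher in clone19 (2.77). The Notch ligand Dll1 stood at 0.532 ± 0.159 and 5.75 ± 0.179 CPM (3.42), and Jag1, another ligand, at 86.7 ± 12.2 and 58.1 ± 8.47 (-0.59). The pathway readouts Axin2, Lgr5 and Gli1 were under 0.5 CPM in the mean of each clone and were not tested.

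Of 53 tested growth factors and receptor kinases 16 were higher in clone19 and 18 in clone1, 7 and 9 over 2-fold. The EGF receptor ligand Ereg had 4.7 ± 0.835 CPM in clone1 and no count in clone19, at least 64.5-fold higher in clone1. Igfbp4, which binds insulin-like growth factors, stood at 331, 254, 241, 254 and 303 CPM in clone1 and 16.9, 17.3, 14.7, 16.5 and 21.1 in clone19 (-3.99 ± 0.12 (SE), adjusted p = 1.89e-20). Its relative Igfbp3 had no count in clone1 and 24 in clone19. The receptors Egfr, Met and Fgfr1 did not pass the test, with log2 fold changes of -0.12, 0.18 and -0.06 (adjusted p = 0.31, 0.0549 and 0.501). Immediate early and MAPK feedback genes were more often higher in clone1 (18 of 30 against 6), led by the feedback inhibitors Dusp6 (112 ± 10.7 and 39 ± 3.09 CPM, -1.52) and Spry4 (-1.59). Targets of YAP and TEAD were more often higher in clone19 (11 of 21 against 3, median 0.33), among them Ankrd1 (319 ± 19.8 and 704 ± 34.9 CPM, 1.14), Ccn2 (0.60) and the kinase gene Nuak2 (1.99), while the factor Tead4 was higher in clone1 (-1.24).

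Proliferation genes were mostly within 2-fold. Of 52 tested proliferation genes 23 were higher in clone19 and 14 in clone1, with 1 over 2-fold, the repressor E2f8 (1.62). Mki67, a marker of cycling cells, had 298 ± 54.5 and 276 ± 36.9 CPM (adjusted p = 0.409), and Top2a and Ccnd1 were higher in clone1 (-0.42 and -0.38). Of 32 tested p53 targets and cell cycle inhibitors 10 were higher in clone19 and 11 in clone1. Trp53 itself was higher in clone1 (491 ± 33.6 and 340 ± 12.6 CPM, -0.53), its targets Cdkn1a and Mdm2 were higher in clone19 (0.42 and 0.38), Cdkn2a was higher in clone1 (-0.46), and the death receptor gene Eda2r stood at 11.5 ± 1.91 and 1.11 ± 0.485 CPM (-3.44). In the BCL2 family 7 of 16 were higher in clone19 and 4 in clone1. The BH3-only genes Hrk (3.49) and Bmf (-2.08) went opposite ways, and the survival genes Bcl2, Bcl2l1 and Mcl1 were higher in clone19 by 0.49, 0.35 and 0.24.

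Of 76 tested ribosomal protein genes 29 were higher in clone19 and 14 in clone1, 1 over 2-fold (Rplp0), with a median of 0.10. Proteasome genes divided 11 to 13 among 36 tested, none over 2-fold; Psma1 differed by 0.02 (adjusted p = 0.855) and Psmb5 by 0.27, a call lost without clone1 replicate 3 (adjusted p = 0.0633) and 2 other single libraries. Lysosome and autophagy genes divided 12 to 17 among 41. The cathepsins went opposite ways: Ctsz (32.9 ± 5.42 and 147 ± 10.3 CPM, 2.16) and Ctsh (1.86) were higher in clone19, and Ctsd (1590 ± 242 and 935 ± 42.5, -0.76) in clone1. The glycoprotein gene Gpnmb was higher in clone19 (3.59), and the autophagosome gene Map1lc3a in clone1 (-1.78).

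Of 47 listed factors of kidney lineage 29 were tested, the others being too low to pass the filter. Of these 7 were higher in clone19 and 13 in clone1, 2 and 3 over 2-fold. Pax8 stood at 393, 372, 374, 361 and 356 CPM in clone1 and 233, 209, 224, 237 and 259 in clone19 (-0.67 ± 0.06 (SE), adjusted p = 1.52e-10). Pax2 had 45.4 ± 4.52 and 42 ± 8.98 CPM (adjusted p = 0.341), against 272 ± 20.4 in Fh1_fl_fl. Hnf4g, Osr1 and Foxd1 were low and over 2-fold higher in clone1, and Tfap2b was over 2-fold higher in clone19 (3.28 and 10.4 CPM). Of 32 tested Hox genes, which keep a cell's position along the body axis, 7 were higher in clone19 and 10 in clone1, with 1 over 2-fold, Hoxc5 (0.23 and 2.82 CPM). Hoxa9 and Hoxd10 were higher in clone1 (log2 fold changes -0.71 and -0.86). Tubular carriers and channels were more often higher in clone1 (11 of 21 against 4): the water channel Aqp1 stood at 87.3, 77.4, 74.4, 79.5 and 89.5 CPM in clone1 and 18.6, 16.8, 21.2, 16.8 and 20.8 in clone19 (-2.12 ± 0.09 (SE), adjusted p = 3e-17), and the betaine transporter Slc6a12 was higher in clone19 (49.8 ± 5.6 and 147 ± 9.37, 1.56).

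Checked against the labelled cell type, Cdh1, Epcam, Krt8, Krt18 and Pax8 were read in every clone library, but several defining genes of differentiated segments were not. Of 17 proximal tubule markers 5 reached 1 CPM in a clone library, and Slc34a1 had no count; the endocytic receptors Lrp2 (81.8 ± 25.1 and 80.2 ± 22.6 CPM, adjusted p = 0.88) and Cubn (18.3 ± 3.47 and 19.5 ± 2, adjusted p = 0.488) were read in both lines. Of the 4 tested proximal markers 2 were higher in clone1, the peptidase Anpep (-2.90) and Aqp1. Of 17 distal markers 5 reached 1 CPM, led by Krt7, Umod had no count in either clone, and 1 of 5 tested was higher in clone19 and 1 in clone1. Podocyte markers divided 3 to 2 among 6 tested, with Nphs1 near 0.

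Markers of other cell types were read at unequal levels. The leukocyte list summed to 40.4 to 51.3 CPM in clone1 and 30.8 to 37.7 in clone19, with Tyrobp at 0 and Ptprc at 0.692 and 0.599 CPM; Cd68 was higher in clone19 (1.24) and Cd14 in clone1 (-1.88), among 3 tested. The endothelial list summed to 14.7 to 20.8 and 10.8 to 16.3 CPM, with Pecam1 at 0.315 and 0.172; of 5 tested, Cdh5 was higher in clone19 (1.7 ± 0.644 and 7.92 ± 0.918 CPM, 2.15) and 3, among them Flt1 and Eng (-1.87), in clone1. The fibroblast, pericyte and smooth muscle list summed to 151 to 165 CPM in clone1 and 327 to 485 in clone19, most of it the cytoskeletal gene Smtn (130 ± 6.04 and 328 ± 54.7) and the adhesion gene Mcam (14.4 ± 1.87 and 72.1 ± 5.81). Pdgfrb had no count, Acta2 stayed under 0.1 CPM in both means and Pdgfra stood at 0.956 ± 0.735 and 3.57 ± 1.57 CPM. Of 6 tested members of this last list 4 were higher in clone19 and 2 in clone1, 4 and 0 over 2-fold. Its sum was higher in clone19, as were the collagen genes over 2-fold and Cdh11, while Col1a1 was higher in clone1. The part of other cells in those differences was not tested.

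Imprinted genes, of which normally only the maternal or the paternal copy is read, included large differences in both directions. Of 24 tested 10 were higher in clone19 and 6 in clone1, 5 and 4 over 2-fold, that is 37.5% of the list against 9.58% of all tested genes. The zinc finger gene Plagl1 had no count in clone1 or Rec and stood at 4.98, 5.76, 3.5, 4.62 and 5.02 CPM in clone19, at least 76.9-fold higher than in clone1, with 3 ± 0.541 in Fh1_fl_fl. The cell cycle inhibitor Cdkn1c had 1 count in clone1 and 2.11 ± 0.58 CPM in clone19, a ratio of 96.6 (95% counting interval 16.9 to 3860). The antisense RNA Airn had 2 counts in clone1 and 2.39 ± 1.15 CPM in clone19, a ratio of 61.2 (95% counting interval 16.5 to 512); it lies across Igf2r on the other strand, and without a stated strand setting their reads cannot be told apart. Zrsr1, a gene for a splicing factor-like protein, went the other way, with 90, 96.7, 106, 106 and 93.3 CPM in clone1 and 11.4, 12.7, 12.3, 9.35 and 13.1 in clone19 (-3.06 ± 0.09 (SE), adjusted p = 1.48e-20). Impact, Mest and Ndn were also over 2-fold higher in clone1 (-2.25, -1.99 and -1.58) and Mcts2 in clone19 (1.95), all 4 named after their values were seen. H19 was near 0 in all 4 lines, and Igf2 stood at 0.337 and 1.08 CPM; neither was tested.

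Enzymes that write and erase chromatin marks were more often higher in clone1 (15 of 30 against 7, median -0.17). Tet2, which oxidises methylated cytosine, stood at 4.08, 4.46, 5.06, 5.95 and 3.64 CPM in clone1 and 0.166, 0.461, 0.525, 0.197 and 0.409 in clone19. It was the 1 member over 2-fold (-3.67 ± 0.27 (SE), adjusted p = 3.46e-12), with 6.24 ± 0.865 CPM in Fh1_fl_fl and 2.17 ± 0.196 in Rec. The maintenance methyltransferase Dnmt1, named after its values were seen, went the other way, at 85.2 ± 5.89 and 160 ± 23.5 CPM (0.91 ± 0.08 (SE), adjusted p = 1.88e-10), without overlap. Tet3 differed by -0.65 ± 0.10 (SE), adjusted p = 2.43e-06, Tet1 stood at 0.273 and 0.125 CPM and was not tested, and the H3K27 methyltransferase Ezh2 was higher in clone1 (-0.34). Of 8 tested markers of the X and Y chromosomes 3 were higher in clone19 and 0 in clone1, and Xist was at 0.0787 and 0.332 CPM.

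Small differences were not spread evenly over the chromosomes. For each clone library the median deviation of a chromosome's tested genes, log2(CPM + 1) less its mean over the 10 libraries, was set against the same median over all tested genes. Clone19 was above clone1 by 0.46 on chromosome 9 (721 genes), by 0.36 on chromosome 12 (428 genes), by 0.36 on X (416 genes), by 0.21 on chromosome 4 and by 0.15 on chromosome 5. It was below on chromosome 6, where the shift was -0.33 (598 genes), and on chromosomes 11 (-0.22), 18 (-0.20), 15 (-0.17) and 7 (-0.13). In an exact two-sided permutation test over the 10 libraries, 17 of 20 chromosomes passed at adjusted p = 0.0106 or 0.0187, the first being the adjusted value of the smallest p that the splits of 10 libraries allow, 0.00794; chromosomes 14, 17 and 19 did not (adjusted p = 0.301, 0.5 and 0.0882). The 5 clone1 values on chromosome 9 lay between -0.24 and -0.21, the 5 clone19 values between 0.22 and 0.24. On chromosome 6 clone1 lay between 0.16 and 0.17, clone19 between -0.18 and -0.14. The spread within a clone was thus far smaller than the shift.

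**Figure D5:**
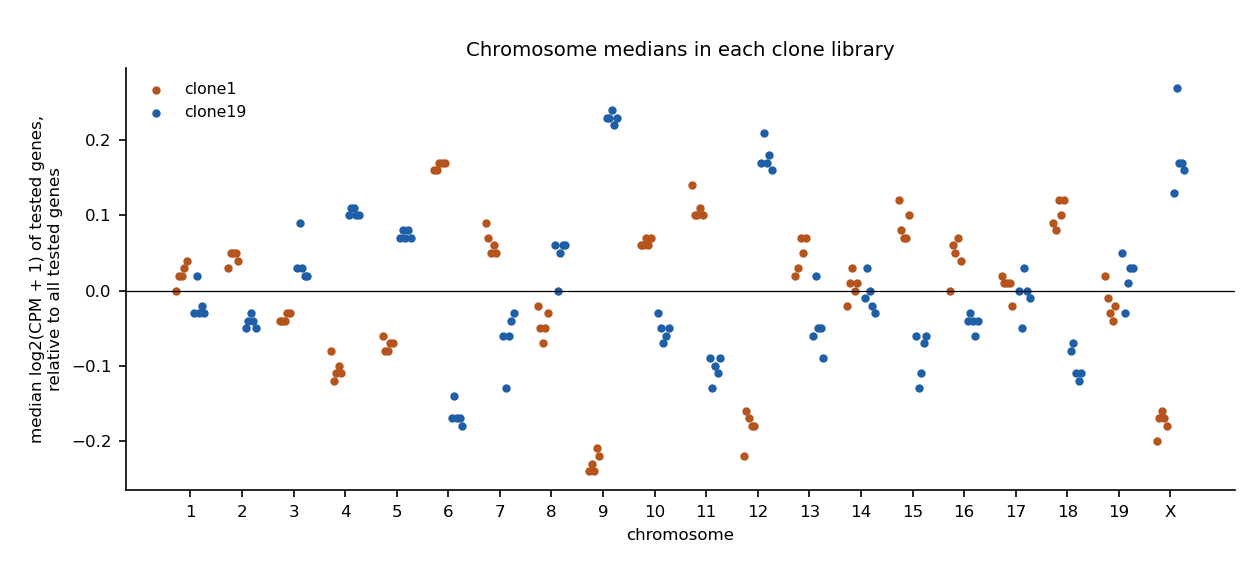
Median deviation of log2(CPM + 1) over the tested genes of each chromosome (horizontal axis), relative to all tested genes, in every clone library (points, 5 per clone). Chromosomes 9, 12 and X lie highest in clone19, at 0.13 to 0.27, and chromosome 6 lies highest in clone1, at 0.16 to 0.17.

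The shifts showed in the direction of the calls. On chromosome 9, 526 of 593 changed genes (88.7%) were higher in clone19, against 51.4% over all changed genes, and on chromosome 6 it was 87 of 433 (20.1%). Tested genes of a chromosome were divided by position into 4 segments of equal gene number (GENCODE M21, GRCm38). On chromosome 9 the segments were alike, with median fitted log2 fold changes of 0.47, 0.56, 0.48 and 0.56. On chromosome 11 they were alike too, between -0.22 and -0.18. On chromosome 12 the first segment stood apart at 0.07 (chr12:3235504-44210326), with 0.49, 0.51 and 0.54 in the others. On X the first segment was highest at 0.73 (chrX:6399854-48408049), where 88 of 91 changed genes were higher in clone19, and the others lay at 0.24, 0.22 and 0.28. On chromosome 6 the medians went from -0.14 to -0.33, -0.38 and -0.45. Within chromosome 5 they ran from -0.12 to 0.50 and within chromosome 2 from -0.24 to 0.33, more than the shift of the whole chromosome shows. Copy number was not measured, and its part in these shifts was not tested. Acat1, Col12a1, Ap1m2 and Mcam lie on chromosome 9, with differences of 8.11, 3.77, 3.75 and 2.33. Gclc and Gsta1 lie there too and were higher in clone1 (-1.66, named after its values were seen, and -3.88). The part of the chromosome's shift in the differences of these genes was not tested.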

How the data were processed

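RNA was sequenced from 20 libraries, 5 each of clone1, clone19, Fh1_fl_fl and Rec, and the 10 clone libraries are compared. The authors deposited whole-number counts of reads per Ensembl gene in a file per library, with no normalization. The submitters' processing notes name GRCm38, DESeq 1.10.1, HTSeq 0.5.3p9 and TopHat2 2.0.4 without roles. Strand setting and annotation release: not given in the sources used here. Rows that name no gene were left out; reads with several alignments were 30.0 to 40.3% of the file totals and reads outside features 3.35 to 6.73% in the clone libraries. Of 39179 genes, 37693 matched a GENCODE M21 symbol. Genes passing edgeR 4.0.16 filterByExpr (12671) were fitted by quasi-likelihood in R 4.3.3 on all 20 libraries with TMM scaling, 1 mean per line, Benjamini-Hochberg adjustment at 0.05 and glmTreat at 2-fold. Simulated counts were drawn for all lines around the clone1 means with the dispersions of this fit. Few genes were changed, equally up and down. Of the genes changed 2-fold 87.5% of 48 were called, and of the unchanged genes 0.0936% of 11748. In the data 65.1% of genes were changed, so these shares do not give the error of its calls. Alternatives used DESeq2 1.42.0, limma 3.58.1 voom, other scalings, filters and sample sets. Chromosome shifts used log2(CPM + 1) and an exact permutation test in SciPy 1.17.1. Promoters are RefSeq's.

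The text names fixed key members of 42 gene lists, up to 4 members per list over 2-fold without overlap, the 12 largest log2 changes at 10 CPM or more, the 10 largest CPM differences and the 8 highest genes on in 1 clone only, in each direction, and Fh1. Other genes were chosen after their values were seen. Some genes that this rule names are not reported here. The members and lists were chosen with earlier results of these data known.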

Additional observations from a re-analysis of the deposited data

Results flagged for a closer look

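In 38 of 421 groups of 5 values examined, a library lay apart from the other 4 of its clone by more of the range than Dixon's 95% value allows; chance gives about 1 in 20. Values of the same library are not independent of each other.

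Clone19 replicate 3 was apart in its share of reads with several alignments (40.3%), of reads outside features (6.73%), of Gm42418 (8.20% of gene counts) and of the 100 most abundant genes (28.0%). It was also the highest of its clone for Gm42418 (91500 CPM), Lars2 (29700) and Fam169b (14.2).

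Clone1 replicate 1 was apart in the share of the 100 most abundant genes (19.8%). It was the highest of its clone for Atf4 (740 CPM), Cd68 (9.36), Ckb (0.996), Cox4i1 (409), Ddit3 (382), Fh1 (123), Gstm1 (891), H2-K1 (59.4), Hmox1 (650), Hoxa9 (111), Id1 (60.3), Krt19 (763), Odc1 (211), Trp53 (551) and Txn1 (273). It was the lowest for Hspa4l (711 CPM), Lars2 (1570), Tead4 (78.9) and Tjp1 (336).

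Of the other libraries, clone1 replicate 3 was lowest for Pgk1 (1120 CPM), clone1 replicate 4 highest for Cldn8 (1.37), and clone1 replicate 5 highest for Jag1 (108) and Ugt2b34 (767) and lowest for Cxcl1 (0.260). Clone19 replicate 2 was lowest for Chac1 (104 CPM) and Pax2 (26.7), and its chromosome medians stood apart on chromosome 6 (-0.14) and on X (0.27). Clone19 replicate 5 was lowest for Hopx (11.7 CPM) and Hoxd10 (13.1).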

How the results depend on the processing

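The count of changed genes stayed between 7510 (the 10 clone libraries alone) and 8794 (no filter on low counts), and that over 2-fold between 1028 (DESeq2) and 1423 (no filter). Leaving out single libraries gave 7949 to 8312 and 1191 to 1231. With the replicate number as a block, 8172 genes were changed and 1191 were over 2-fold. Deviations from the clone means correlated from -0.064 to 0.134 between same-numbered libraries and from -0.155 to 0.158 between the others. With 5 libraries a side this cannot settle whether the numbers pair the clones. Genes on in 1 clone only depended on the limits: for clone1 and clone19 there were 8 and 8 with on at 5 CPM, 47 and 43 at 0.5 CPM, 10 and 8 with off at 0 counts, and 64 and 67 at 10 counts. Without a low count filter 4 proximal and 5 distal tubule markers were changed. The setting that leaves out the mitochondrial genes cannot show how their calls depend on the processing. Changed integrins ran from 7 to 11 as libraries were left out. These genes changed sign when single libraries were left out, with log2 ranges of -0.07 to 0.08 for Psma1, -0.02 to 0.15 for Cubn, -0.18 to 0.14 for Lrp2, 0.00 to 0.29 for Col4a2, -0.08 to 0.01 for Chac1, -0.20 to 0.01 for Pax2, -0.13 to 0.01 for Pcx, -0.41 to 2.84 for Gm42418 and -0.48 to 1.56 for Lars2; the cause was not tested. Psma1 was at 0.00 with RLE scaling and DESeq2 and at -0.01 without the filter or without Gm42418 and mitochondrial genes. The shift of chromosome 17 was 0.01 by the mean and 0.00 without clone19 replicate 2. A count of 0 in a single clone library allows a level of up to 0.246 to 0.501 CPM, depending on its depth.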
